A study of Arabidopsis thaliana with 14 samples.

Results

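Late embryogenesis abundant (LEA) proteins other than dehydrins were followed across both genotypes and both treatments of an Arabidopsis seedling experiment. The set held 42 genes, chosen by locus from the LEA_1 to LEA_5, SMP (seed maturation protein), PvLEA18 and AtM groups, of 25433 genes that had a probe on the array. All 42 had at least 1 probe whose transcript accession matched the gene's locus. LEA proteins are small, very hydrophilic proteins that collect in seeds as these dry, and many are also made in leaves and roots under drought, salt or cold. Most are disordered in water and are thought to shield membranes and other proteins as water is lost. In seeds their genes are switched on by abscisic acid (ABA) through factors such as ABI3 and ABI5, and in vegetative tissue by ABA-responsive element and DREB factors.

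Whole seedlings gave the total RNA for 14 Agilent arrays of a single colour. Seedlings of a 35S:YFP-AFL1 line, which makes AFL1 fused to yellow fluorescent protein from the broadly active 35S promoter, were compared with wild type, both in the Col-0 background. All were 7 days old when moved either to polyethylene glycol plates of low water potential (-1.2 MPa, called stress below) or to fresh control plates, and all were harvested 10 h later. There were 3 35S:YFP-AFL1 stress arrays, 3 35S:YFP-AFL1 control arrays, 4 wild-type stress arrays and 4 wild-type control arrays. The labels do not say how many independent lines were used or whether replicates were separate cultures, so the spread behind each p-value is that of the samples here and may be technical. Levels are log2 signal relative to the 75th percentile of the array, so a level of 0 equals that percentile and a difference of 1 is a doubling. They may be compared between arrays for 1 gene, but not between genes.

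The 75th percentile of the signal was 796.2 to 1591 over the arrays, 59.5% to 67% of spots were well above background, none was saturated, and probe signals of arrays in the same group had correlations of 0.958 to 0.985. AFL1 itself was at 2.08 to 2.51 in 35S:YFP-AFL1 controls, above the -0.55 to 0.66 of wild-type controls (log2 difference 2.41 ± 0.26, SE, n = 3 and 4, adjusted p = 0.00453). At stress its ranges overlapped, with 3.82 to 4.08 in 35S:YFP-AFL1 and 3.33 to 4.08 in wild type. All 5 shoot markers were well above background on every array. The 4 root markers were too, except EXPA7, which was well above background on 1 of 3 arrays in each 35S:YFP-AFL1 group. Wild-type replicate 1 of each treatment shared a slide with the 35S:YFP-AFL1 arrays of that treatment (slide 5 for stress, slide 4 for control), while the other wild-type arrays lay on slides 1 to 3.

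Detection differed between the kinds of LEA gene. Members were sorted into 23 seed-type genes, 11 vegetative genes and 8 unassigned genes from general knowledge of where each transcript is mainly found. Of the vegetative genes, 10 of 11 were well above background on all 14 arrays. Of the seed-type genes this held for 9 of 23, and of the unassigned genes for 1 of 8. A gene was tested if, within any 1 group, 3 or more arrays read a probe of it as well above background, which was so for 34 of the 42. Of these 34, 25 passed in an unstressed group. The other 9 passed only through stressed arrays and so had to be higher there: LEA4-5, AT2G18340, AT3G15670, AT1G72100, AT2G42560, AT2G03850, AT5G38760, AT3G22490 and AT2G23110. The 8 untested members were AT4G13230, AT2G03740, AT3G53770, M10, ATECP31, AT5G27980, AT5G53260 and AT5G53270, of which 4 were well above background on no array. The SMP group, whose proteins are known from maturing seeds, thus had 2 of 6 members tested.

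**Figure D1:**
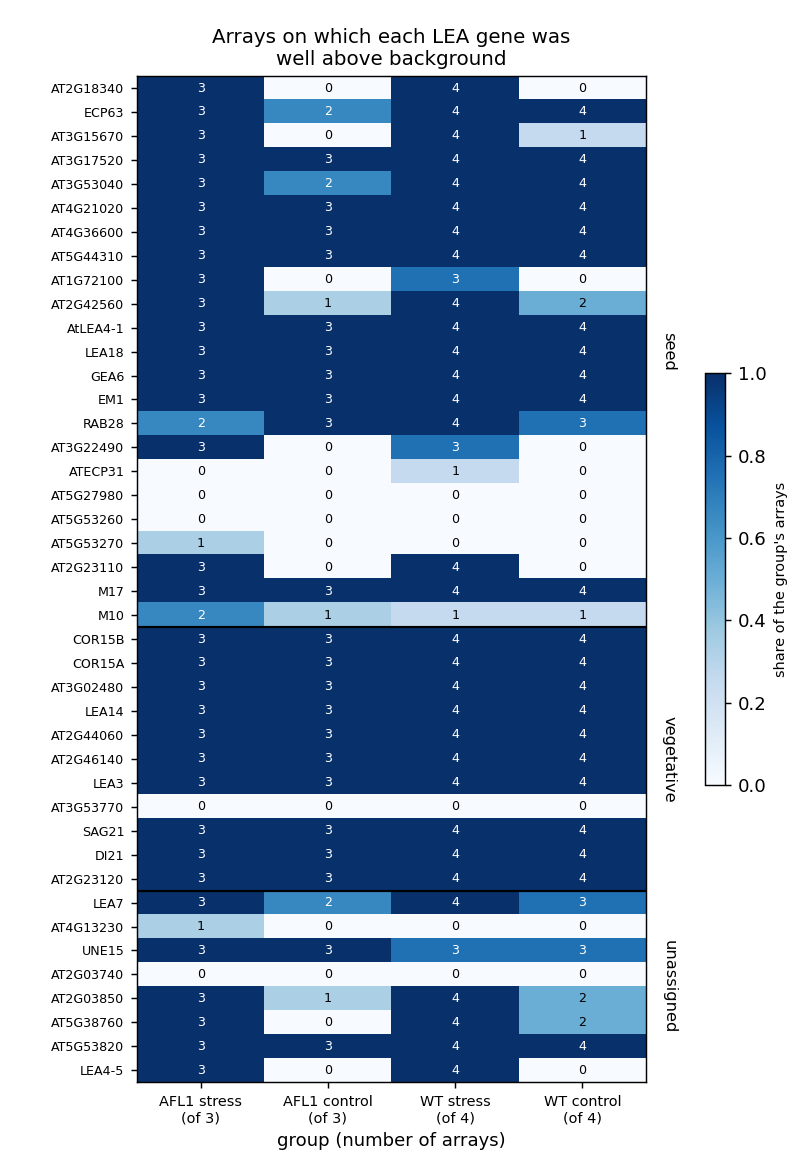
Number of arrays on which each of the 42 LEA genes was well above background (rows, by class; columns, the 4 groups with their number of arrays; AFL1, 35S:YFP-AFL1; WT, wild type; colour, share of the group's arrays). The vegetative block is full except for AT3G53770, while 6 seed-type genes reached the test only through the stressed columns.

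At low water potential 31 of 34 tested LEA genes were called higher in each genotype, counting the 9 that had to be. In 35S:YFP-AFL1, 0 were called lower and the median log2 fold change was 4.05. In wild type 0 were called lower and the median was 3.07. Of all 18309 genes tested, 30.1% were called higher in 35S:YFP-AFL1 and 30.7% in wild type, with medians of -0.04 and -0.03. Lower were 33.3% and 33.4%, so that 63.3% and 64.1% were called in either direction. Calls are at an adjusted p under 0.05 (limma, Benjamini-Hochberg over all genes tested). Among the 25 genes that had passed in an unstressed group, 22 were called higher in each genotype, with a median of 3.59 in 35S:YFP-AFL1 and 2.87 in wild type. For 31 of 34 in each genotype every stress array was also above every control array, again counting the 9 that had to be higher. Of all genes, 37% had this pattern in 35S:YFP-AFL1 and 39.5% the opposite one. In wild type the shares were 25.9% and 27.4%. UNE15, RAB28 and M17 were the 3 genes not called in either genotype. Because whole seedlings were used, a change in the share of cells that hold a transcript and a change in the amount per cell cannot be told apart.

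The calls were read again with slides and scan days taken into account. In 35S:YFP-AFL1 every stress array lay on slide 5 and every control array on slide 4. Treatment and slide cannot be told apart within that line. Slide 2, with wild-type stress replicate 2 and wild-type control replicate 4, was the only slide that held both treatments. Every wild-type response with the slide as a block thus rests on that pair alone, assumed to vary like the other arrays. The blocked 35S:YFP-AFL1 response rests on the same pair and on the wild-type replicate 1 arrays that shared its slides. With the slide as a block, 27 of 34 were called higher in 35S:YFP-AFL1 and 30 of 34 in wild type. Of all 18309 genes, 2900 and 4031 were called higher, and 35.9% and 47.6% were called in either direction. The counts of members here and by scan day include the 9 genes that passed only through stressed arrays. Scan day 2 held all 35S:YFP-AFL1 arrays, so it gives that line no further check. For wild type each scan day held an arm of 1 array, assumed to vary like the other groups. On scan day 2, with 3 stress arrays and 1 control array, 31 of 34 were called higher in wild type, where 42% of all genes were called in either direction. On scan day 1, with 1 stress array and 3 control arrays, 30 of 34 were, where 50% of all genes were called.

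**Figure D2:**
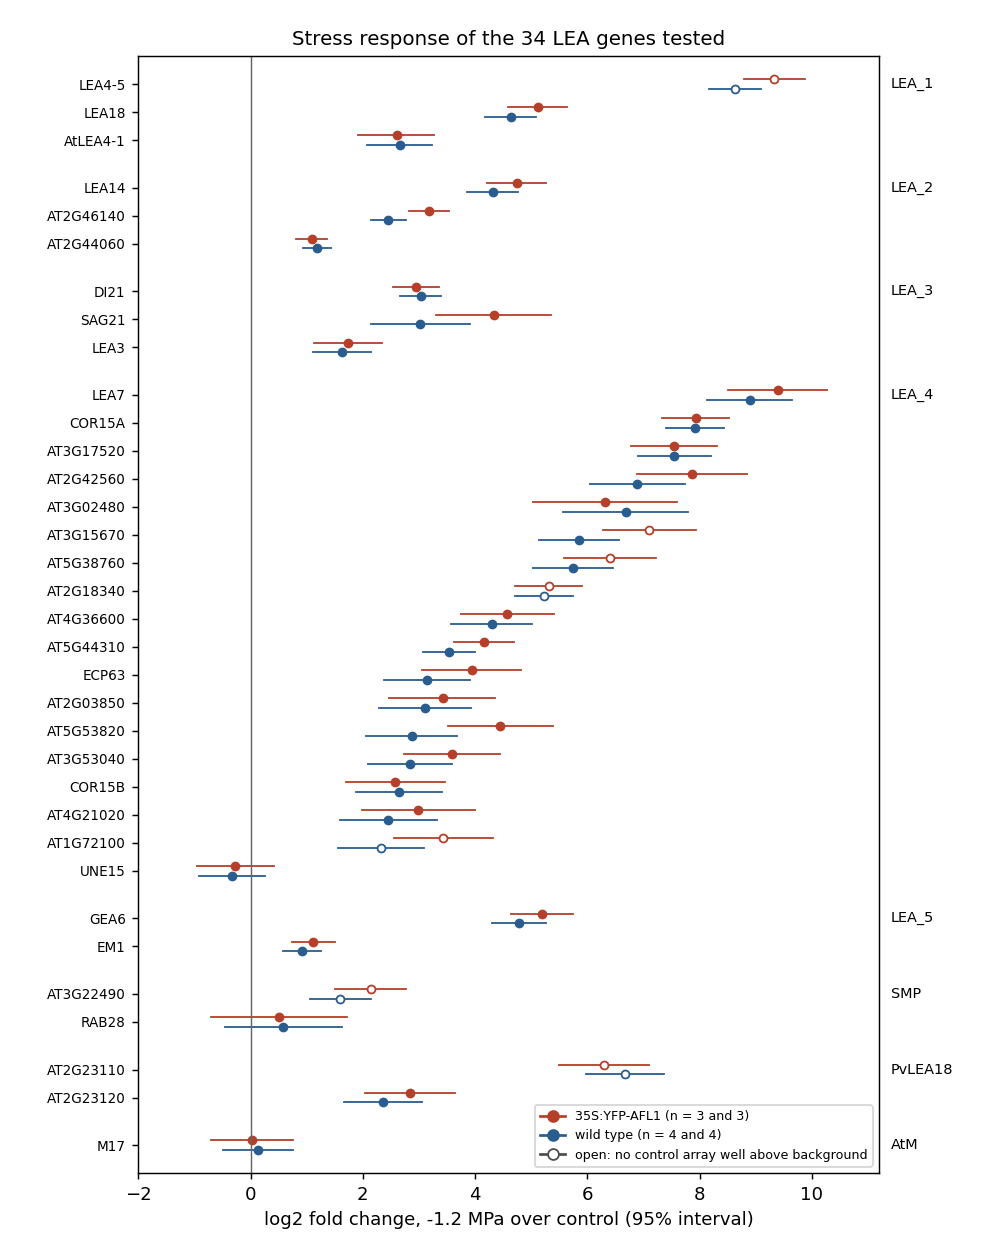
Log2 fold change of stress over control for the 34 LEA genes tested (rows, by LEA group; points, estimates of the linear model; lines, 95% intervals; red, 35S:YFP-AFL1; blue, wild type; open points, no control array well above background). All intervals but those of UNE15, RAB28 and M17 lie above 0, and LEA7 and LEA4-5 lie farthest to the right.

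The LEA_4 group is the largest, with 20 genes of helix-forming repeat proteins, and 17 of its 18 tested members were higher at stress in each genotype (medians 4.51 in 35S:YFP-AFL1 and 3.91 in wild type). Of these 18, 6 passed the filter only through stressed arrays and so had to be higher. Among all genes tested, 30.1% were called higher in 35S:YFP-AFL1 and 30.7% in wild type. LEA7, a protein of seeds that stress also induces in seedlings, had the highest log2 fold change of the members well above background in control, and LEA4-5, for which there is a bound only, was close to it. The levels of LEA7 were 5.20, 5.29 and 5.40 on the 35S:YFP-AFL1 stress arrays, against -3.73, -3.53 and -5.01 on their control arrays. Wild type gave 5.14, 5.42, 5.72 and 4.87 at stress, against -3.06, -3.15, -3.70 and -4.50 in control. The treatments were far apart in both genotypes, and the log2 fold changes were 9.39 ± 0.40 (SE, n = 3 and 3) and, in wild type, 8.89 ± 0.35 (SE, n = 4 and 4, adjusted p = 1.98e-10).

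COR15A and COR15B are cold-regulated proteins of the chloroplast that protect membranes during freezing, and their genes lie side by side. COR15A stood at 5.71, 5.81 and 5.77 in stressed 35S:YFP-AFL1 seedlings, against -2.26, -1.91 and -2.33 in control. In wild type it stood at 5.89, 5.75, 5.84 and 5.39 at stress, against -3.02, -1.76, -1.75 and -2.24 in control. Stressed arrays of either genotype lay within a narrow band, and the log2 fold changes were 7.93 ± 0.28 and 7.91 ± 0.24 (adjusted p = 1.87e-11 in wild type). For COR15B they were smaller, 2.58 ± 0.41 in 35S:YFP-AFL1 and 2.65 ± 0.35 in wild type. Whether a probe of one also binds the transcript of the other was not tested. AT3G17520, a LEA_4 protein of maturing seeds, followed COR15A in the order of wild-type responses. It was at 5.60, 5.58 and 5.43 in stressed 35S:YFP-AFL1, against -1.62, -1.70 and -2.69 in control, and at 5.64, 5.38, 5.44 and 5.23 in stressed wild type, against -1.12, -2.36, -2.36 and -2.69 in control. The treatments did not overlap, with log2 fold changes of 7.54 ± 0.35 and 7.55 ± 0.30.

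At the other end of the LEA_4 group, AT4G21020, a seed-type gene, was still higher at stress, but its wild-type stress arrays were spread. It was at -0.48, -0.45 and -0.54 in stressed 35S:YFP-AFL1, against -3.52, -3.16 and -3.74 in control. Wild type had -0.30, -2.05, -2.31 and -1.0 at stress, against -2.93, -4.34, -4.05 and -4.16 in control, so that the treatments did not overlap in either genotype. The log2 fold changes were 2.98 ± 0.46 and 2.45 ± 0.40. AT1G72100, a LEA_4 domain protein of seeds, was not well above background on any control array. Its stress levels were -2.64, -2.53 and -2.68 in 35S:YFP-AFL1, against -5.97, -6.14 and -6.06 in control, and -2.63, -3.39, -4.15 and -3.23 in wild type, against -5.34, -4.79, -5.93 and -6.65. Stress was at least 10.7-fold higher in 35S:YFP-AFL1 and at least 4.73-fold higher in wild type. Such bounds set the mean of the stress arrays against the lowest signal well above background on each control array, or against the probe's own signal where that was higher.

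UNE15, named for a mutant with unfertilized embryo sacs, was the 1 LEA_4 gene not called. It was at -3.43, -3.53 and -3.68 in stressed 35S:YFP-AFL1, against -3.27, -3.49 and -3.08 in control, and at -4.50, -3.32, -3.30 and -3.42 in stressed wild type, against -3.89, -3.21, -2.75 and -3.36 in control. The treatments overlapped, and the 95% intervals of the log2 fold change were -0.95 to 0.41 in 35S:YFP-AFL1 and -0.92 to 0.26 in wild type. The remaining LEA_4 genes lay between these ends. In wild type AT2G42560 rose by 6.89, AT3G02480 by 6.68, AT5G38760 by 5.74, AT4G36600 by 4.30 and ECP63, an embryonic protein, by 3.14. AT2G42560 and AT5G38760 were each well above background on 2 of 4 wild-type control arrays, so these 2 rises rest partly on signals near background. AT2G18340 was not well above background on any control array and was at least 39.6-fold higher at stress in 35S:YFP-AFL1 and at least 35-fold higher in wild type. AT5G38760, with no 35S:YFP-AFL1 control array well above background, was at least 84.9-fold higher there. AT2G03850 rose by 3.42 in 35S:YFP-AFL1 and by 3.11 in wild type, and AT3G53040 by 3.59 and 2.84. Control arrays read AT2G03850 as well above background on 1 of 3 in 35S:YFP-AFL1 and 2 of 4 in wild type.

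**Figure D3:**
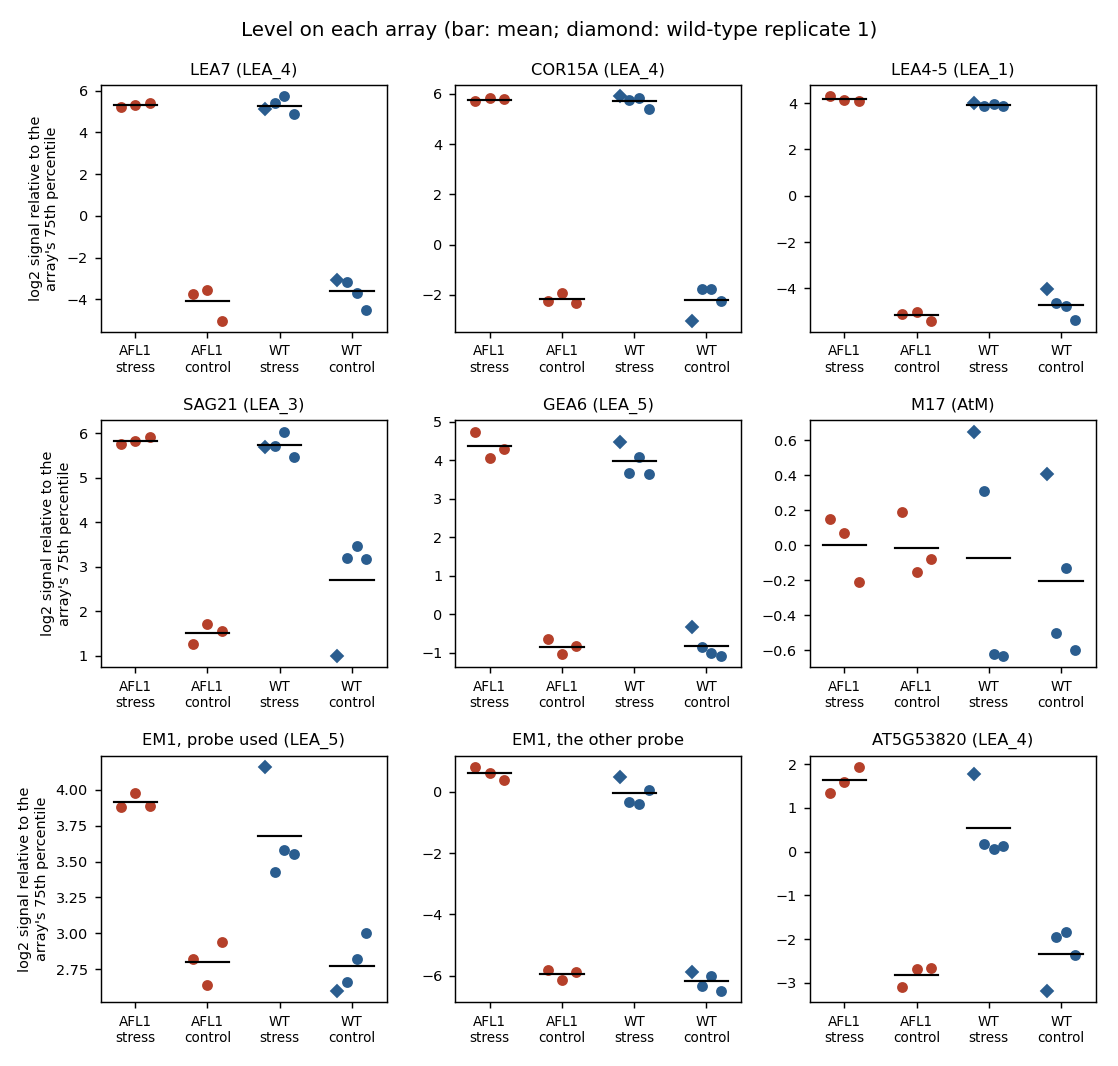
Level of 8 LEA genes on each of the 14 arrays (vertical axes, log2 signal relative to the array's 75th percentile, each panel on its own scale; bars, group means; diamonds, wild-type replicate 1; EM1 with both of its probes). LEA7, COR15A, LEA4-5 and GEA6 are apart between treatments in both genotypes, M17 overlaps throughout, and the diamonds of SAG21 in control and AT5G53820 at stress lie with the 35S:YFP-AFL1 points.

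The 3 LEA_1 genes, group 4 LEA proteins of seeds, were all higher (medians 5.12 in 35S:YFP-AFL1 and 4.63 in wild type). Of the 3, LEA4-5 passed the filter only through stressed arrays and so had to be higher. LEA4-5, which water deficit also induces outside seeds, was at 4.29, 4.13 and 4.08 in stressed 35S:YFP-AFL1, against -5.09, -5.01 and -5.39 in control. In wild type it was at 3.99, 3.89, 3.96 and 3.86 at stress, against -4.02, -4.64, -4.76 and -5.38 in control. Its stress arrays were close to each other, while no control array was well above background. It was at least 643-fold higher at stress in 35S:YFP-AFL1 and at least 396-fold higher in wild type (adjusted p = 4.18e-12 in wild type). AtLEA4-1 responded least of the 3, with 0.49, 0.70 and 0.47 in stressed 35S:YFP-AFL1, against -1.84, -1.90 and -2.39 in control. Its wild-type levels were 0.99, 0.72, 0.97 and 0.56 at stress, against -0.87, -1.94, -2.27 and -2.32 in control. The treatments did not overlap and the log2 fold changes were 2.60 ± 0.31 and 2.66 ± 0.27. LEA18 lay between them at 5.12 and 4.63.

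LEA_2 proteins differ from the others in that they fold into a stable structure. All 3 members were higher at stress in both genotypes (medians 3.18 in 35S:YFP-AFL1 and 2.45 in wild type). LEA14, which light and wounding also induce, was at 3.24, 3.21 and 3.15 in stressed 35S:YFP-AFL1, against -1.46, -1.67 and -1.50 in control. Wild type had 2.64, 3.46, 3.69 and 3.21 at stress, against -1.57, -0.93, -0.95 and -0.81 in control. The treatments did not overlap, with log2 fold changes of 4.74 ± 0.24 and 4.31 ± 0.21. AT2G44060 already had a level above the array's 75th percentile in control and had the smallest called wild-type response apart from EM1. It was at 3.04, 2.68 and 3.13 in stressed 35S:YFP-AFL1, against 1.83, 2.02 and 1.73 in control, and at 3.09, 2.91, 3.0 and 2.91 in stressed wild type, against 1.84, 1.81, 1.77 and 1.74. Replicates were close, so that a change of 1.09 ± 0.13 in 35S:YFP-AFL1 and 1.18 ± 0.11 in wild type passed the test (adjusted p = 7.88e-06 and 8.65e-07). With the slide as a block its 35S:YFP-AFL1 response was 1.02 (adjusted p = 0.056). AT2G46140 rose by 3.18 and 2.45.

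LEA_3 proteins are mostly carried into mitochondria or chloroplasts. The 3 tested members were higher at stress in both genotypes (medians 2.95 in 35S:YFP-AFL1 and 3.02 in wild type), and the untested AT3G53770 was well above background on no array. DI21, named as drought-induced, was at 5.01, 5.14 and 5.05 in stressed 35S:YFP-AFL1, against 1.90, 2.13 and 2.32 in control. In wild type it was at 5.36, 5.02, 5.24 and 4.75 at stress, against 1.65, 2.31, 2.14 and 2.15 in control. Its treatments did not overlap and its log2 fold changes were 2.95 ± 0.19 and 3.03 ± 0.16. LEA3 was at 1.62, 1.49 and 1.31 in stressed 35S:YFP-AFL1, against -0.11, -0.16 and -0.51 in control, and at 2.12, 1.71, 1.19 and 1.85 in stressed wild type, against -0.49, 0.67, 0.29 and -0.13. The gap between treatments was smaller than for DI21, at 1.74 ± 0.28 and 1.63 ± 0.24, and with the slide as a block the 35S:YFP-AFL1 response was 0.97 (adjusted p = 0.187).

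The LEA_5 group holds the Em proteins of seeds, whose genes are textbook targets of ABI3 and ABI5. GEA6, also known as EM6, was at 4.74, 4.05 and 4.28 in stressed 35S:YFP-AFL1, against -0.64, -1.03 and -0.83 in control. Wild type had 4.47, 3.68, 4.09 and 3.63 at stress, against -0.32, -0.85, -0.99 and -1.07 in control. The treatments did not overlap, with log2 fold changes of 5.19 ± 0.26 and 4.78 ± 0.22 (adjusted p = 8.68e-10 in wild type). EM1 gave values that depend on its probe. The brighter probe, which stands for the gene here, was at 3.88, 3.98 and 3.89 in stressed 35S:YFP-AFL1, against 2.82, 2.64 and 2.94 in control. On the wild-type arrays it was at 4.16, 3.43, 3.58 and 3.55 at stress, against 2.60, 2.66, 2.82 and 3.0 in control. It was well above background on all arrays, and its fold changes were small, 1.12 ± 0.18 and 0.91 ± 0.16. The other probe was at 0.82, 0.61 and 0.38 in stressed 35S:YFP-AFL1, against -5.82, -6.14 and -5.90 in control. Its wild-type levels were 0.48, -0.32, -0.41 and 0.07 at stress, against -5.88, -6.35, -6.01 and -6.50 in control. This second probe was well above background on every stress array and on no control array, and read at least 93.9-fold higher at stress in 35S:YFP-AFL1 and at least 68.2-fold higher in wild type. Which probe follows the EM1 transcript was not tested. No other member with several kept probes had wild-type responses more than 0.19 apart.

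Of the SMP group, AT3G22490 was called and RAB28 was not. AT3G22490 was not well above background on any control array. It was at -2.92, -2.35 and -2.46 in stressed 35S:YFP-AFL1, against -4.45, -5.04 and -4.65 in control, and at -2.87, -3.34, -3.83 and -2.80 in stressed wild type, against -4.67, -4.57, -5.38 and -4.59. Stress was at least 4.39-fold higher in 35S:YFP-AFL1 and at least 3.02-fold higher in wild type, and neither call held with the slide as a block (adjusted p = 0.17 and 0.0885). RAB28 was at -1.89, -3.63 and -3.12 in stressed 35S:YFP-AFL1, against -3.13, -3.44 and -3.57 in control, and at -3.59, -3.62, -1.25 and -3.18 in stressed wild type, against -3.86, -3.57, -3.54 and -2.99. A single array in each stressed group stood above the rest, the treatments overlapped, and the 95% intervals were -0.71 to 1.71 and -0.46 to 1.63 (log2).

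The PvLEA18 genes AT2G23110, a seed-type gene, and AT2G23120, a vegetative one, lie side by side in the genome, and both were higher at stress. AT2G23110 was at 0.84, 0.90 and 0.71 in stressed 35S:YFP-AFL1, against -6.10, -5.71 and -4.64 in control, and at 0.26, 0.88, 0.98 and 0.86 in stressed wild type, against -5.15, -6.45, -6.28 and -5.83. None of its control arrays was well above background, and stress was at least 78.4-fold higher in 35S:YFP-AFL1 and at least 98.8-fold higher in wild type. AT2G23120 was well above background throughout, at 3.65, 3.68 and 3.82 in stressed 35S:YFP-AFL1, against 0.68, 1.06 and 0.90 in control. Its wild-type levels were 3.56, 3.83, 4.31 and 3.87 at stress, against 0.46, 2.09, 2.32 and 1.28 in control. It rose by 2.84 and 2.36, with no overlap of treatments. The AtM transcript M17 was at 0.15, 0.07 and -0.21 in stressed 35S:YFP-AFL1, against 0.19, -0.15 and -0.08 in control. It was at 0.65, 0.31, -0.62 and -0.63 in stressed wild type, against 0.41, -0.50, -0.13 and -0.60. The treatments overlapped in both genotypes, with 95% intervals of -0.71 to 0.75 and -0.50 to 0.76.

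Seed-type and vegetative members were set side by side without a test. In 35S:YFP-AFL1, 16 of 18 tested seed-type genes and 10 of 10 tested vegetative genes were called higher at stress, with median log2 fold changes of 4.05 and 3.07. The wild-type counts were again 16 of 18 and 10 of 10, with medians of 3.33 and 2.83. Restricted to genes that had passed in an unstressed group, the seed-type medians were 3.76 in 35S:YFP-AFL1 and 2.99 in wild type over 12 genes, and the vegetative medians stayed at 3.07 and 2.83 over 10. The seed-type minus vegetative difference of medians was 0.69 in 35S:YFP-AFL1 and 0.15 in wild type over these genes. It was 0.98 and 0.50 over all that were tested, which include 6 seed-type and 0 vegetative genes that had to be higher at stress. On single arrays, the seed-type minus vegetative difference of median levels had a pooled SD of 0.61 between replicates. That is a spread of levels, not of the differences of fold changes above. With normexp background correction the difference of median fold changes was 0.58 in 35S:YFP-AFL1 and 0.03 in wild type. With no filter on dim probes it was 0.49 and 0.02. In wild type it was -0.10 with the scan day as a block and -0.89 on scan day 2, where replicate 1 was the 1 control array. The median level of the 18 seed-type genes was -3.01, -2.91 and -3.58 in 35S:YFP-AFL1 controls and -2.0, -3.0, -3.20 and -3.20 in wild-type controls, where replicate 1 was the highest. For the 10 vegetative genes it was 0.22, 0.34 and 0.19 in 35S:YFP-AFL1 controls and -0.17, 1.24, 0.98 and -0.25 in wild-type controls, where replicates 2 and 3, both on slide 1, were the highest.

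The 35S:YFP-AFL1 line and wild type did not differ in any LEA gene at the threshold. In control, 0 of 34 were called with limma (background 0.0218% of all genes, 0.0109% higher and 0.0109% lower), and 3 of 34 had an unadjusted p under 0.05, which is 8.82% of members and 11.3% of all genes. At stress, 0 of 34 were called (background 2.17%, of which 0.475% higher and 1.69% lower), and again 3 of 34 were under 0.05 unadjusted, where 20.2% of all genes were. The difference of the stress responses had 0 calls among members and among all genes (0%), with 3 members and 9.73% of all genes under 0.05 unadjusted. No other tool was run. A p that misses the threshold does not show that the genotypes had equal levels, and the values of the members with the smallest p follow.

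In control the smallest p belonged to the LEA_2 gene AT2G46140. Its control levels were -2.72, -2.75 and -2.71 in 35S:YFP-AFL1 and -2.12, -1.75, -2.22 and -2.18 in wild type, with every 35S:YFP-AFL1 array lower than every wild-type array. The log2 difference was -0.66 ± 0.15 (SE, n = 3 and 4, unadjusted p = 0.000888, limma adjusted p = 0.122). At stress its levels were 0.28, 0.31 and 0.78 in 35S:YFP-AFL1 and 0.39, 0.40, 0.56 and 0.18 in wild type, which overlapped. The difference of its responses was 0.73 ± 0.22 before adjustment (unadjusted p = 0.00504, limma adjusted p = 0.3), also the smallest p of that comparison. Of all genes, 6.73% had every 35S:YFP-AFL1 control array lower.

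SAG21, a mitochondrial LEA_3 protein tied to senescence and oxidative stress, had wild-type control arrays that were far apart. Its control levels were 1.26, 1.71 and 1.56 in 35S:YFP-AFL1 and 1.0, 3.20, 3.47 and 3.17 in wild type. Wild-type replicate 1, the array on the slide of the 35S:YFP-AFL1 controls, was lower than all of these and the other wild-type arrays were higher. The log2 difference was -1.20 ± 0.44 over all arrays (limma adjusted p = 0.32), 0.51 against wild-type replicate 1 alone and -1.77 against the other 3. Without that wild-type array the difference was called (adjusted p = 0.000391), as were 2.93% of all genes. At stress SAG21 was at 5.77, 5.83 and 5.92 in 35S:YFP-AFL1 and 5.70, 5.71, 6.04 and 5.47 in wild type, with overlap, and it rose by 4.33 and 3.02 over control. AT3G15670, a LEA_4 protein of maturing seeds, was at -4.76, -4.04 and -5.62 in 35S:YFP-AFL1 controls, where no array was well above background, and at -3.72, -4.38, -4.45 and -3.37 in wild-type controls, where 1 of 4 was. The groups overlapped and the difference was not called (unadjusted p = 0.0387, limma adjusted p = 0.408), with no size given for lack of a measured 35S:YFP-AFL1 level. Its stress levels were 2.42, 2.20 and 2.26 in 35S:YFP-AFL1, at least 137-fold above control, and 2.55, 1.54, 1.65 and 1.76 in wild type, with a log2 fold change of 5.85 ± 0.33. The difference of responses was not called either (unadjusted p = 0.0293, limma adjusted p = 0.453).

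At stress the smallest p belonged to AT5G53820, a small LEA_4-type protein. It was at 1.35, 1.60 and 1.94 in stressed 35S:YFP-AFL1 and at 1.78, 0.18, 0.06 and 0.13 in stressed wild type. Wild-type replicate 1, on the slide of the 35S:YFP-AFL1 stress arrays, lay within their range and the other 3 wild-type arrays far lower. The log2 difference was 1.09 ± 0.41 over all arrays (unadjusted p = 0.0184, limma adjusted p = 0.161), -0.15 within the slide and 1.51 against the other wild-type arrays. Control levels were -3.10, -2.68 and -2.66 in 35S:YFP-AFL1 and -3.18, -1.96, -1.83 and -2.37 in wild type, which overlapped, and the difference of responses was 1.57 ± 0.57 (limma adjusted p = 0.407). AT5G44310, a LEA_4 protein of maturing seeds, followed the same order, at 2.25, 2.09 and 2.18 in stressed 35S:YFP-AFL1 and 2.21, 1.25, 1.30 and 1.73 in stressed wild type. Its difference was 0.55 ± 0.23 over all arrays (limma adjusted p = 0.211), -0.04 within the slide and 0.75 against the other wild-type arrays. Its control levels were -2.0, -1.88 and -2.09 in 35S:YFP-AFL1 and -1.38, -2.14, -1.92 and -2.20 in wild type, and it rose by 4.16 and 3.53 at stress. Without wild-type stress replicate 1, AT5G53820 and AT5G44310 were both called (adjusted p = 0.00523 and 0.0226), in a setting that called 19.2% of all genes. AT3G22490, described above, differed by 0.63 ± 0.27 (limma adjusted p = 0.22), 0.29 within the slide and 0.75 against the other wild-type arrays. A second probe of this gene, which did not pass the filter, differed by -0.11 over all arrays.

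In 4 members every 35S:YFP-AFL1 stress array was above every wild-type stress array, and in 0 every one was below (6.41% and 8.14% of all genes). These were LEA4-5, LEA18, AT2G42560 and AT5G38760. AT2G42560, a seed-type LEA_4 gene, was at 3.50, 3.36 and 3.48 in stressed 35S:YFP-AFL1 and 3.26, 2.34, 2.28 and 2.37 in stressed wild type. AT5G38760, a LEA_4 gene brought in after its values were seen, was at 2.38, 2.39 and 2.63 in stressed 35S:YFP-AFL1 and 2.16, 1.70, 2.0 and 1.90 in stressed wild type. LEA18 was at 4.44, 4.69 and 4.53 in stressed 35S:YFP-AFL1 and 4.43, 3.90, 4.20 and 4.22 in stressed wild type. Their log2 differences were 0.88 ± 0.42, 0.53 ± 0.36 and 0.37 ± 0.23 over all arrays, with limma adjusted p of 0.263, 0.427 and 0.387. Against wild-type replicate 1 on the same slide they were 0.18, 0.31 and 0.13, and for LEA4-5 the difference was 0.24 ± 0.23 over all arrays and 0.18 on the slide. In control AT5G38760 was at -3.79, -4.09 and -3.94 in 35S:YFP-AFL1 and -2.49, -4.57, -4.08 and -4.08 in wild type, which overlapped.

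The same comparison was made for all 34 tested genes. At stress, 17 of 18 seed-type genes had a higher mean in 35S:YFP-AFL1 than in wild type (median log2 difference 0.38) and 3 of 10 vegetative genes did (median -0.04), where 50.6% of all genes did. Against wild-type replicate 1 of the same slide, 7 of 18 seed-type and 6 of 10 vegetative genes were higher in 35S:YFP-AFL1, with medians of -0.11 and 0.06, where 46.5% of all genes were. Against the other wild-type arrays the counts were 15 of 18 and 5 of 10, with medians of 0.55 and -0.05, where 50.8% of all genes were. In control, 2 of 18 seed-type genes were higher in 35S:YFP-AFL1 within the slide (median -0.66) and 12 of 18 were against the other wild-type arrays (median 0.13). For the vegetative genes these counts were 9 of 10 (median 0.44) and 2 of 10 (median -0.59), and for all genes the shares were 50.4% and 53.1%. Wild-type replicate 1 had a higher level than the mean of the other wild-type arrays for 15 of 18 seed-type genes at stress and 16 of 18 in control, where 53% and 52.1% of all genes did. Of the 18 seed-type genes, 6 passed the filter only through stressed arrays, so their signs in control rest partly on signals near background. The same limit holds for 3 unassigned genes and 0 vegetative genes. The sign of the difference from all wild-type arrays turned within the shared slide for 16 of 34 members (47.1%) at stress and for 13 of 34 (38.2%) in control, near the 40.7% and 34.5% of all genes. Genotype and slide cannot be told apart beyond the 1 wild-type array on each shared slide.

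**Figure D4:**
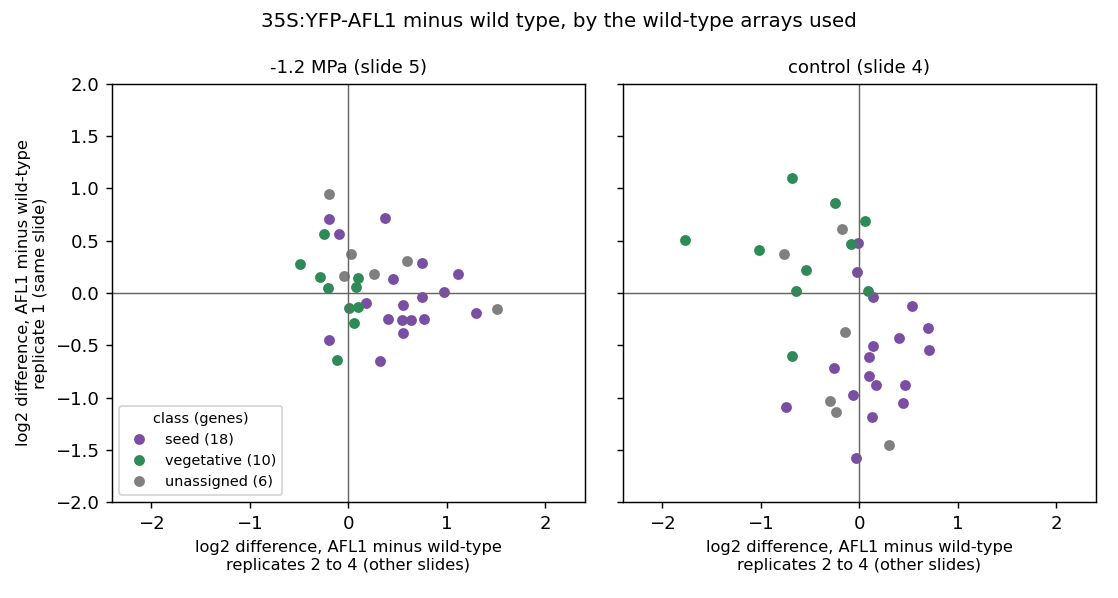
Log2 difference of 35S:YFP-AFL1 minus wild type for the 34 LEA genes tested, at stress (left) and in control (right); the horizontal axis uses wild-type replicates 2 to 4, the vertical axis wild-type replicate 1, which shared the slide (points, genes; colour, class). Seed-type genes lie mostly to the right of 0 at stress, and in control 2 of 18 lie above 0 on the vertical axis, where 9 of 10 vegetative genes do. Control positions of the 6 seed-type genes that passed only through stressed arrays rest partly on signals near background.

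Other genes of the desiccation programme were counted from lists of general knowledge. Beside them, 30.1% of all genes tested were higher and 33.3% lower at stress in 35S:YFP-AFL1, and 30.7% and 33.4% in wild type. Dehydrins, the LEA proteins with lysine-rich segments that were left out of the set, had 9 of 10 members higher at stress in each genotype (medians 3.01 in 35S:YFP-AFL1 and 2.72 in wild type). Among the 9 was AT4G39130, named after its values were seen, which was well above background on the 35S:YFP-AFL1 stress arrays only, so its wild-type call has no measured level on either side. In wild type LTI30 rose by 6.75, XERO1 by 5.18, AT2G21490 by 3.84 and RAB18 by 2.99. Of 9 ABF and DREB transcription factors, 6 were higher and 1 lower in each genotype. In wild type DREB2A rose by 3.39, ABF2 by 2.85 and ABF3 by 2.59. DREB1A, also called higher, passed the filter only through stressed arrays and was well above background on 1 of 4 wild-type control arrays and 0 of 3 in 35S:YFP-AFL1. The 1 lower was CBF1 at -1.82, named after its value was seen. These factors bind the promoters of many LEA genes in vegetative tissue.

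Genes that mark seeds moved less uniformly. Of 8 regulators of seed maturation, 3 were tested. Of these, 2 were higher at stress in 35S:YFP-AFL1 and 1 in wild type, beside 30.1% and 30.7% of all genes. ABI5, the bZIP factor that activates Em genes, rose by 2.91 in 35S:YFP-AFL1 and by 2.73 in wild type. It was well above background on 1 of 3 35S:YFP-AFL1 control arrays and 4 of 4 in wild type, so the first value rests partly on signals near background. ABI3, named after its values were seen, was called in 35S:YFP-AFL1 (0.91) and not in wild type (0.24), and the difference between these responses was not called. FUS3, LEC2 and DPBF2 were well above background on no array. Of 16 seed storage and oil body genes, 7 were tested, with 5 higher and 1 lower in 35S:YFP-AFL1 and 4 higher and 1 lower in wild type. The shares of all genes called lower were 33.3% and 33.4%. In wild type AT3G01570 (1.82), the seed peroxiredoxin PER1 (1.47) and OLEO2 (0.82) were higher. OLEO4, a seed oil body protein, was the 1 called lower (-1.88). It passed the filter only through control arrays, which favours a lower value at stress. It was well above background on 1 of 4 wild-type stress arrays and 0 of 3 in 35S:YFP-AFL1. Its highest wild-type stress level, -2.11, was above its highest wild-type control level, -2.77. The summed level of these 16 genes, in multiples of the 75th percentile, was 2.52 to 2.86 on 35S:YFP-AFL1 stress arrays and 0.987 to 1.25 on their controls. In wild type it was 1.41 to 2.58 at stress and 0.834 to 1.1 in control. The napins SESA1, SESA2, SESA4 and SESA5 and the caleosin ATS1 were well above background on none of the 14 arrays.

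The markers of shoot and root were read beside the LEA genes. Among all genes tested, 30.1% were higher and 33.3% lower at stress in 35S:YFP-AFL1, and 30.7% and 33.4% in wild type. All 5 shoot markers were lower at stress in both genotypes, and their summed level was 180 to 219 in stressed 35S:YFP-AFL1, against 591 to 624 in control, and 183 to 339 in stressed wild type, against 586 to 693 in control. LHCB2.1, a light-harvesting protein, fell by 2.77 in wild type, RBCS3B by 2.62, CAB2 by 1.23 and RBCS1A by 1.07. Of 4 root markers, 1 was higher and 2 lower in 35S:YFP-AFL1, and 1 was higher and 1 lower in wild type, where SHV2 rose by 0.59 and PYK10 fell by 0.41. Their summed level was 34.9 to 39.6 in stressed 35S:YFP-AFL1, against 47.4 to 61.1 in control, and 35.7 to 65.1 in stressed wild type, against 60 to 67.9 in control. The part of tissue make-up in the LEA responses was not tested.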

How the data were processed

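Total RNA of 14 seedling samples was read on single-colour Agilent arrays, and per the file headers the authors' deposited intensity values are the background-subtracted processed signal of Agilent Feature Extraction 10.7.1.1. The deposited table of all samples held the same intensity values (largest relative difference 6e-04). Of 45220 spots, 43803 were not controls. They gave 43603 probes, of which 34358 (78.8%) were matched to a locus by transcript accession without version, through the TAIR10.1 gene table. That table gave loci, names and the order of neighbouring genes, and none of its coordinates is printed because the array design carries another build.

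Each array's log2 signal was centred on its 75th percentile. Spots of a probe were averaged, and an outlier spot was left out only where another spot of its probe remained. Nearly all probes had a single spot, so their flagged spots stayed in. A probe was kept if 3 or more arrays of any group read it as well above background. The brightest kept probe stood for a gene. limma 3.58.1 (R 4.3.3) fitted 4 group means to 14 arrays with 10 residual degrees of freedom. The fit was also run on simulated arrays with independent errors and no slide effect. Real arrays of a slide had a consensus correlation of 0.442, so that check does not cover slide effects. Calls used a Benjamini-Hochberg adjusted p under 0.05 over 18309 genes. With 3 or 4 arrays a group, the number of arrays limits the precision.

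The 42 members, their classes and the other lists were chosen with earlier results of these data known. Arrays were grouped by genotype and treatment from the labels. Values on every array are given for the tested members with the highest and lowest wild-type response in each LEA group (in LEA_4 the 3 highest and 3 lowest), and for the 3 with the smallest p in each genotype comparison. Alternatives changed the scaling, the background correction, the filter, the probe rule, the batch terms and the arrays used. Normexp was run on the median signal with an offset of 50, in place of the planned mean signal. Sequences are not used here.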

Additional observations from a re-analysis of the deposited data

Results flagged for a closer look

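Among the 24 members with values on every array, 48 groups of 4 wild-type arrays were examined for an array that stood apart, meaning that its gap to the nearest other array exceeded Dixon's critical share of the group's range. This was so in 5 of the 48. For independent groups chance alone gives about 1 in 20. These genes were picked from the same data and share the same wild-type arrays, so the 5 cannot be judged against that rate.

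SAG21 was at 1.0 on wild-type control replicate 1, where the other 3 arrays were at 3.17 to 3.47. AT5G53820 was at 1.78 on wild-type stress replicate 1, where the others were at 0.06 to 0.18. Both arrays shared their slide with the 35S:YFP-AFL1 arrays of that treatment. The same stress array gave the lowest values for UNE15, at -4.50 where the others were at -3.42 to -3.30, and for AT2G23110, at 0.26 where the others were at 0.86 to 0.98. AT3G22490 was at -5.38 on wild-type control replicate 3, where the others were at -4.67 to -4.57 and none was well above background. No LEA gene had a difference of responses between the genotypes that passed the test.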

How the results depend on the processing

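Under each of the other settings the counts called at stress were 27 to 32 in 35S:YFP-AFL1 and 30 to 32 in wild type. With no filter on dim probes they were 32 of 42 in each. Leaving out each array in turn gave 31 in both genotypes, and a seed-type minus vegetative difference of 0.68 to 1.17 in 35S:YFP-AFL1 and 0.22 to 1.09 in wild type. That difference was 2.17 in 35S:YFP-AFL1 with the slide as a block and -0.89 in wild type on scan day 2 arrays, with 1 control array, and the cause was not tested. With the slide as a block the EM1 response in 35S:YFP-AFL1 turned to -0.02 (adjusted p = 0.961), and in wild type M17 was called (0.91). EM1 was not called in wild type with the slide as a block (0.43) or on scan day 1 (0.60). The slide-blocked wild-type values rest on the pair of arrays on slide 2 alone.

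Genotype counts moved with wild-type replicate 1. In control, a fit that blocked on slide called 1 member, and so did scan day 2 arrays (AT5G38760, lower). Both rest on 1 wild-type control array, replicate 1, and no 35S:YFP-AFL1 control array had the gene well above background. Leaving out each array gave 0 to 1 in control, 0 to 4 at stress and 0 to 1 for the difference of responses. Without wild-type control replicate 1, SAG21 was called in control (-1.77) and for the difference of responses (1.88). Without wild-type stress replicate 1, AT4G21020, AT5G44310, AT5G53820 and EM1 were called at stress (1.30, 0.75, 1.51 and 0.40), 4 of 34 where 19.2% of all genes were called, and AT5G53820 for the difference (1.99). On scan day 2 arrays the difference was called for 1 member, AT5G38760, on the same single control array. Without both wild-type replicate 1 arrays, a setting added after seeing the data, 6 members were called in control, 7 at stress and 2 for the difference, where 7.64%, 22.7% and 6.41% of all genes were. The genotypes then share no slide.

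Median centring moved the median of all genes to 0.17 in 35S:YFP-AFL1, where 6993 genes were called higher and 5035 lower, against 5502 and 6090 as reported, and to 0.13 in wild type. Counts of members did not change. Replicate numbers were not treated as pairs. Deviations of same-numbered arrays correlated at -0.12 to 0.40, which cannot exclude pairing because arrays of different numbers were not compared. The replicate block gave 31 calls in each stress response and 0 in each genotype comparison. Dim control signals limit 9 tested genes.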

Other observations

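Members that were not tested gave single readings above background. AT4G13230 was at -3.60 on 35S:YFP-AFL1 stress replicate 1, while the other 2 stress arrays of that genotype were at -5.13 and -5.14. AT5G53270 was at -3.08 on 35S:YFP-AFL1 stress replicate 3, while the other 2 were at -6.28 and -5.88. ATECP31 was at -5.83, -4.18, -5.94 and -4.93 on the wild-type stress arrays. M10 was well above background on 5 arrays, spread over all 4 groups.

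The 42 members held 5 pairs of direct neighbours among protein-coding genes. In wild type COR15B rose by 2.65 and its neighbour COR15A by 7.91, and AT2G23120 by 2.36, while its neighbour AT2G23110 was at least 98.8-fold higher. In the pairs M17 with M10 and AT3G22490 with ATECP31, 1 gene was tested. In the pair AT5G53260 with AT5G53270, neither was.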
